A study of Homo sapiens with 6 samples.

Results

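The genes described here encode lectins that are best known from immune cells: the siglecs, the proteins named for a C-type lectin domain and the killer-cell lectin-like receptors. Members were all probe sets whose RefSeq transcript belongs to a gene with a symbol beginning SIGLEC, CLEC or KLR, or to CD22, CD33, MAG or CD209. This gave 52 of the 1259 probe sets of the array and 45 of its 927 named genes. By family these were 16 probe sets of 14 siglec genes, 25 probe sets of 24 C-type lectin genes and 11 probe sets of 7 killer-cell receptor genes. The cells were HCT-15, an established human colon cancer line, cultured with or without 5-aza-2'-deoxycytidine, an analogue of cytidine that is built into DNA and blocks DNA methyltransferases. There were 3 untreated and 3 treated arrays of total RNA, with no other difference given between the groups. The sources used here do not give dose, duration or vehicle. They also do not say whether replicates were separate cultures, and the p-values then measure only how far these 6 samples scatter, which may be technical scatter.

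Siglecs are receptors that bind sialic acid at the ends of glycans, and most of them carry inhibitory motifs in their cytoplasmic tails that recruit phosphatases. C-type lectin receptors of myeloid cells recognise sugars of fungi, bacteria and dying cells, while other proteins with the same fold are secreted or act in adhesion. Killer-cell lectin-like receptors sit on natural killer cells and some T cells, where they read HLA-E, stress-induced ligands or cadherins on the target cell and raise or restrain killing. Epithelial cells are mostly known as the bearers of the ligands of these receptors rather than as their source, so the question for this line was which members stood above the low range of the array and which moved with the drug.

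All values are RMA log2 values deposited by the authors, in which 1 unit is a doubling of the probe signal. Array medians lay between 5.81 and 5.92, and arrays correlated at 0.9974 to 0.9987 within a group and at 0.9817 to 0.9844 across the groups. One array, untreated replicate 3, carries a title with the word treated. Its source name and treatment entry say untreated, and it was grouped by these. Over all probe sets the 3 untreated arrays, this one among them, correlated at 0.9978 to 0.9982. Untreated and treated arrays correlated at 0.9817 to 0.9844. The 52 member values of untreated replicate 3 differed from those of the other untreated arrays by a median of 0.104 and from the treated arrays by 0.118. Among the 3 untreated arrays it held the highest value for 33 of the 52 probe sets, and untreated replicate 2 held the lowest for 28. Treated replicate 3 was likewise the highest treated array for 30. Of all 390 probe sets of the array that lay low in both groups, untreated replicate 3 was the highest untreated array in 62.6% and treated replicate 3 the highest treated array in 53.3%. The calls are given with and without untreated replicate 3. Of 17 epithelial markers listed, 4 were on the array and all 4 (MUC1, MUC2, MUC13 and LGALS4) were above the low range in both groups. In limma's test MUC1 (2.47-fold, adjusted p = 3.3e-05) and MUC13 (1.95-fold, adjusted p = 6.15e-06) rose and LGALS4 fell (1.42-fold, adjusted p = 0.000291), while MUC2 was not called. Calls were common at such levels, with 41.9% of the 809 probe sets above the low range in both groups. The summed log2 level of the 4 markers ran from 30.2 to 30.3 in untreated and from 31.9 to 32.5 in treated arrays, and its part in the members' changes was not tested. Of 27 leukocyte markers listed, 6 were on the array, 0 were called in limma's test (0 also at an unadjusted p under 0.05 and 0 in an ordinary equal-variance test) and 4 lay in the low range in both groups. The mean value of these 6 ran from 4.62 to 4.70 in untreated and from 4.61 to 4.67 in treated arrays. PTPRC, the common leukocyte antigen, was not among the genes matched here. In bulk RNA a change in the share of cells and a change in RNA per cell cannot be told apart.

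Most of the lectin probe sets sat low on the array's scale. No detection calls were used, so the low range was taken as the lowest 33.3% of all probe sets by group mean, which ended at 4.87 in untreated and 4.92 in treated cells. In both groups 32 of the 52 member probe sets (61.5%) lay in it. The median member value was 4.47 in untreated and 4.51 in treated cells, against 5.84 and 5.90 for all probe sets. In treated cells 19 of 52 (36.5%) were above the low range, where this choice puts 66.6% of the whole array. Only 2 of the 52 probe sets left the low range with treatment, 1 for CLEC1A and 1 for KLRC3, and 1 entered it, also for KLRC3. Over the whole array 2.38% left it and 2.38% entered it, so the members' count was close to the background. A probe set's value also depends on how well its probes bind, so the position on this scale says where a signal lies and not how many transcripts a cell holds.

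**Figure D1:**
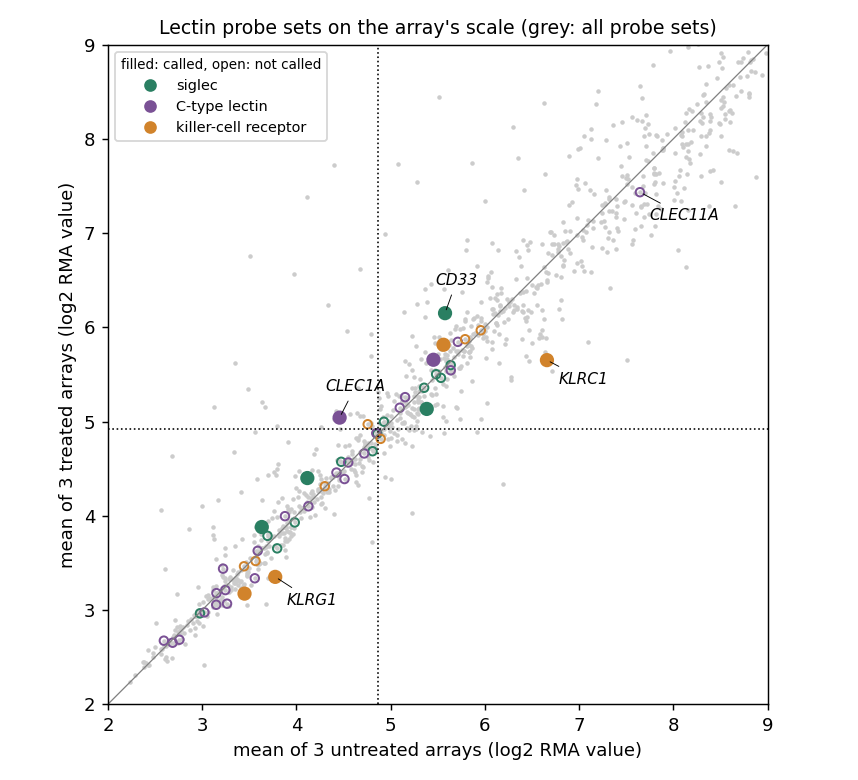
Mean log2 RMA value of the 3 treated arrays (vertical axis) against that of the 3 untreated arrays (horizontal axis) for the 52 lectin probe sets, coloured by family and filled where called, over all probe sets in grey. Dotted lines mark the top of the low range at 4.87 and 4.92, and CLEC1A is the filled point in the upper left field, from 4.46 to 5.04. Grey points above 9 on either axis fall outside the plot.

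Treatment moved few of these genes and moved them little. By limma, with p-values adjusted after Benjamini and Hochberg over all 1259 probe sets, 10 of the 52 members (19.2%) passed an adjusted p under 0.05, against 34.8% of the array. Of these, 6 were higher in treated cells, where the array had 18.0%, and 4 were lower, where it had 16.8%. Each of the 10 stood for a different gene. Only KLRC1 passed 1.5-fold, a mark passed by 13.4% of the array. The median log2 change of the members was 0.01 and their median absolute change 0.082, against -0.01 and 0.151 for all probe sets. The groups of 3 arrays were free of overlap in 18 members (34.6%), 10 higher and 8 lower, against 46.1% of all probe sets. Low signal goes with fewer calls on this array as a whole: 14.6% of the 390 probe sets in the low range in both groups were called, and 41.9% of the 809 above it in both. Members had 4 of 32 (12.5%) in the first class and 5 of 17 (29.4%) in the second. The split of 6 higher and 4 lower turned to 4 and 9 after quantile normalization and to 3 and 8 with median centring of the arrays.

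**Figure D2:**
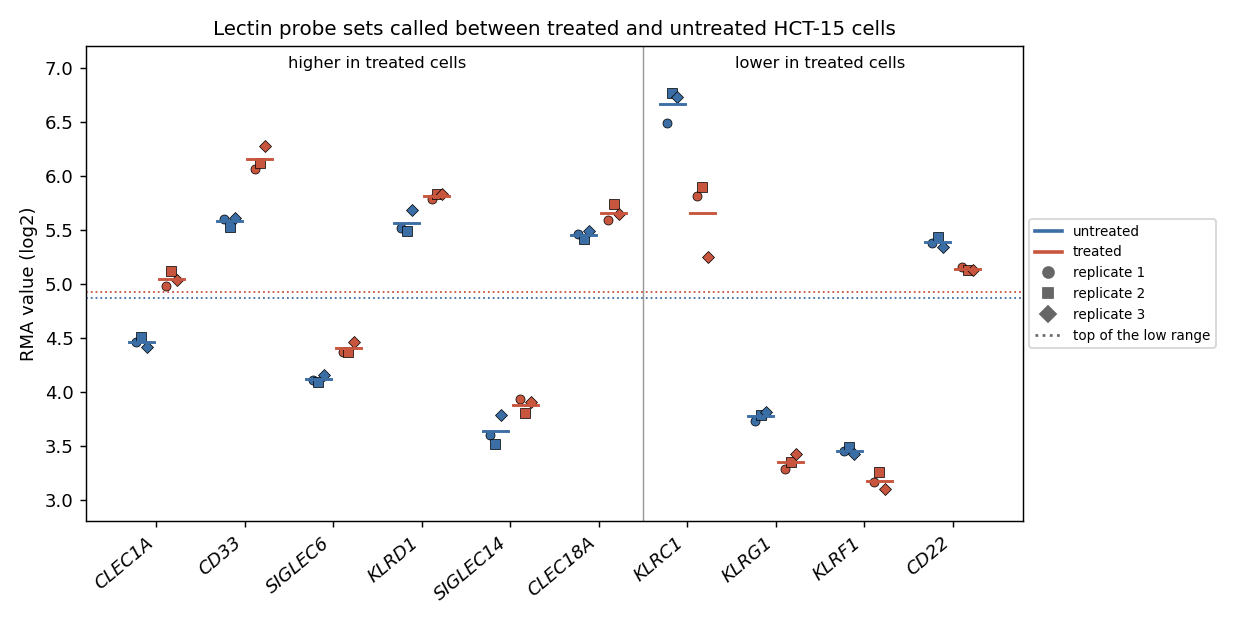
Log2 RMA value of each array for the 10 called lectin probe sets, untreated in blue and treated in red, with horizontal bars for the group means (n = 3) and a symbol for each replicate. The groups overlap in none of the 10, and the widest spread within a group is that of KLRC1 in treated cells, from 5.24 to 5.90.

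Among the siglecs, 3 of 16 probe sets rose, 1 fell and 12 were not called. These 4 calls were a smaller share than the 34.8% called over the whole array. CD33, an inhibitory siglec of myeloid cells, had values of 5.60, 5.53 and 5.61 in untreated and 6.06, 6.11 and 6.27 in treated cells. All 3 treated arrays were above all untreated ones, and the mean crossed the middle of the array, with 45.4% of probe sets at or below it before and 53.6% after. The log2 change was 0.57 ± 0.08 (SE, n = 3 and 3), or 1.49-fold, with an adjusted p = 0.000168 in limma's test. SIGLEC6, a siglec known from placental trophoblast and mast cells, read 4.11, 4.09 and 4.15 in untreated and 4.37, 4.37 and 4.46 in treated cells. The rise of 0.28 ± 0.07 (1.22-fold, adjusted p = 0.00713 in limma's test) left it inside the low range. SIGLEC14 is an activating siglec that signals through the adaptor DAP12 and is nearly identical to SIGLEC5 in its outer domains. Its values were 3.60, 3.51 and 3.78 before and 3.94, 3.80 and 3.91 after treatment, and the gap between the highest untreated and the lowest treated array was narrow. It rose by 0.25 ± 0.09 (1.19-fold, adjusted p = 0.0445 in limma's test) and also stayed in the low range, while SIGLEC5 went from 4.81 to 4.69 and was not called (adjusted p = 0.265).

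CD22, the inhibitory siglec of B cells that binds α2,6-linked sialic acid, was the siglec that fell. It read 5.38, 5.44 and 5.34 in untreated and 5.15, 5.13 and 5.12 in treated cells. The treated arrays were almost equal and all below the untreated ones. The change was -0.25 ± 0.07 (1.19-fold lower, adjusted p = 0.013 in limma's test). MAG, the myelin-associated glycoprotein of glial cells, had 3 probe sets with changes of -0.04, 0.01 and 0.07, none of them called. SIGLEC1, the macrophage sialoadhesin, went from 5.48 to 5.50, SIGLEC8, of eosinophils and mast cells, from 5.53 to 5.46, and SIGLEC10, a B-cell siglec, from 5.36 to 5.36. These were above the low range in both groups and were not called. The siglecs SIGLEC7, SIGLEC9, SIGLEC11, SIGLEC12 and SIGLEC15 stayed in the low range, with changes from -0.14 to 0.10. The siglec split depended on scaling, with 1 higher and 3 lower after quantile normalization, where SIGLEC9 and SIGLEC11 were called lower, and 2 higher and 2 lower after median centring.

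DNA methylation, which the drug lowers, sits mostly on cytosine in CG pairs, so the upstream DNA of the called siglecs is shown with each CG pair in capitals. Each is the stretch of 250 bases that ends just before a start in the RefSeq promoter table (GRCh38.p14), written 5′ to 3′ on the gene's strand. CD33 lies at chr19:51224830-51225079, plus strand. SIGLEC6 lies at chr19:51531671-51531920, minus strand. SIGLEC14 lies at chr19:51646826-51647075, minus strand. CD22 lies at chr19:35328937-35329186, plus strand.
CD33: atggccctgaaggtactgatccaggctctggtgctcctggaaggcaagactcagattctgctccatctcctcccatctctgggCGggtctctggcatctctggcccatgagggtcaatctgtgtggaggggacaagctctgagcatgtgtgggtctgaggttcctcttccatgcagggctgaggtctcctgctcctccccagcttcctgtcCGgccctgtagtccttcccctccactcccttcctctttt
SIGLEC6: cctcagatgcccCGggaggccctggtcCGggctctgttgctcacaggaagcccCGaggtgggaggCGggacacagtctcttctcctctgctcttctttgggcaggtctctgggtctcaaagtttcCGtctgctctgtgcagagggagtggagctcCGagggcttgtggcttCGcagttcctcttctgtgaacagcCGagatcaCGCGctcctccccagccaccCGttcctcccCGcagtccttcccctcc
SIGLEC14: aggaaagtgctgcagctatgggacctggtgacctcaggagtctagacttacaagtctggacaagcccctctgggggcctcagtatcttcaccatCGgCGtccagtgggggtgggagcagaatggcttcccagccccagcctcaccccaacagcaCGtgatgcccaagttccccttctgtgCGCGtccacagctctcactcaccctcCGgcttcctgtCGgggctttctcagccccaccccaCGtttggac
CD22: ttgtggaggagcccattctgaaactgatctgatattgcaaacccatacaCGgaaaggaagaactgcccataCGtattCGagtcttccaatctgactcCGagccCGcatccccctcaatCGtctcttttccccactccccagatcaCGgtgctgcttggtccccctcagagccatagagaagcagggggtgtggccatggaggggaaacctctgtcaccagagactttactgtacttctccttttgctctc

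These windows held 2 CG pairs for CD33, 12 for SIGLEC6, 8 for SIGLEC14 and 7 for CD22. A CG pair reads the same on both strands, so both are counted at once. Of all 35116 windows of that length in the table, 85.3% held at least 2, 48.5% at least 12, 56.3% at least 8 and 58.9% at least 7. A window was found for 32 of the 45 member genes, 40 windows in all, with a median of 4 CG pairs against 11 over the table. In 17.5% of the member windows there were 10 or more, against 52.2% of all windows. The windows of the genes called higher had 2 to 12 with a median of 8.5 (6 windows of 4 genes). Those called lower had 0 to 24 with a median of 1.5 (6 windows of 3 genes), and those not called 0 to 24 with a median of 4 (28 windows of 25 genes). In the lower set KLRC1 gave 3 windows with 2, 0 and 1 pairs, KLRG1 gave 2 with 24 and 0, and CD22 gave 1. In the higher set CLEC18A gave 3, so these medians count some genes more than others. No window was found for CLEC1A, KLRD1 or KLRF1, which were also called. Windows of 1 gene are not independent, and no difference between these sets was tested. Methylation itself was not measured, and the starts used in HCT-15 cells are not known from these data.

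Of the 25 C-type lectin probe sets 2 rose, 0 fell and 23 were not called in limma's test. That is 8.0% called, against 34.8% of the array. At an unadjusted p under 0.05 there were 3 rises and 3 falls, and an ordinary equal-variance test called 3 rises and 0 falls. The split turned to 2 higher and 3 lower after quantile normalization and to 1 higher and 3 lower after median centring. CLEC1A, a receptor of myeloid and endothelial cells that recognises fungal melanin, had the largest rise of all members. Its values were 4.46, 4.51 and 4.41 in untreated and 4.98, 5.11 and 5.03 in treated cells. The treated arrays were tightly grouped and all above 4.92, the top of the low range, so this was the called member that left it. The log2 change was 0.58 ± 0.07 (SE, n = 3 and 3), just under 1.5-fold, with an adjusted p = 8.17e-05 in limma's test. Its share of probe sets at or below its mean went from 27.6% to 35.7%, so it moved from just under to just over the line that was drawn. With the lowest 25% as the low range, 0 members left it, as CLEC1A was already above that line when untreated. With the lowest 50%, 1 left it, and that was CD33.

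CLEC18A, a lectin with near-identical gene copies from which its probe set may also draw signal, read 5.46, 5.41 and 5.49 before and 5.59, 5.73 and 5.64 after treatment. Its rise of 0.20 ± 0.07 (1.15-fold, adjusted p = 0.0493 in limma's test) lay at the threshold, and leaving out any 1 of the 6 arrays ended the call (adjusted p from 0.0607 to 0.169).

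CLEC11A, a secreted growth factor of blood and bone, had the highest values of all members and was the one C-type lectin well above the array's middle. Its arrays read 7.58, 7.65 and 7.71 untreated and 7.41, 7.58 and 7.31 treated. The groups overlapped narrowly, and the change of -0.21 ± 0.08 was not called (adjusted p = 0.0813). It passed without treated replicate 2 (-0.29, adjusted p = 0.0273) and after median centring (-0.28, 0.0249). The others above the low range in both groups were not called: CLEC4F, a receptor known from Kupffer cells, went from 5.71 to 5.85. CLEC3B, the plasma protein tetranectin, went from 5.64 to 5.54, and CLEC10A, the macrophage galactose-type lectin, from 5.10 to 5.15. CLEC7A, the β-glucan receptor dectin-1, had a probe set at 5.15 and 5.26 in the 2 groups and another at 2.59 and 2.67. Their levels are not comparable with each other, and neither was called.

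Of receptors known from myeloid cells, CD33, SIGLEC1, SIGLEC8, CLEC4F, CLEC10A and the brighter CLEC7A probe set were above the low range in both groups. CLEC1A left it. Several other receptors of myeloid cells were in the low range in both groups and were not called. CD209, the dendritic cell receptor DC-SIGN, went from 4.51 to 4.39. CLEC4E, the receptor Mincle, was at 4.13 and 4.10, CLEC4D at 2.76 and 2.68, CLEC6A, or dectin-2, at 3.15 and 3.06, and CLEC9A, which marks a class of dendritic cells, at 3.59 and 3.63. Over the 18 C-type lectin probe sets that lay in the low range in both groups, changes ran from -0.22 to 0.22, 13 of them within 0.1 of 0, with a median standard error of 0.080. CLEC4C, a receptor of plasmacytoid dendritic cells, came closest to a call (3.22 to 3.44, adjusted p = 0.0588). CLEC1B, the platelet receptor for podoplanin, followed with 3.56 to 3.34 (adjusted p = 0.0804), and its 3 treated arrays were all below the untreated ones.

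Killer-cell receptors had 1 rise and 3 falls among 11 probe sets, and 7 were not called. The called share of 36.4% was close to the 34.8% of the whole array. KLRC1, or NKG2A, is the inhibitory partner of CD94 in the receptor for HLA-E, and it had the largest change of all members. Its values were 6.49, 6.76 and 6.73 in untreated and 5.81, 5.90 and 5.24 in treated cells. Treated replicate 3 was far below the other two treated arrays, though all 3 lay under every untreated value. The log2 change was -1.01 ± 0.15 (SE, n = 3 and 3), or 2.01-fold lower, with an adjusted p = 0.000388 in limma's test. Without treated replicate 3 it was -0.80 (adjusted p = 0.000311). The mean stayed above the low range, with 60.5% of probe sets at or below it before and 45.4% after. The letter s in the ending of the probe set's name marks probes shared between transcripts, which can be those of several genes, and the killer-cell receptor genes of this subfamily are close copies of each other.

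KLRG1, an inhibitory receptor for cadherins, read 3.73, 3.79 and 3.81 in untreated and 3.28, 3.35 and 3.42 in treated cells. The groups were well apart, and the change was -0.42 ± 0.07 (1.34-fold lower, adjusted p = 0.000747 in limma's test). KLRF1, the activating receptor NKp80, read 3.45, 3.48 and 3.42 before and 3.16, 3.26 and 3.10 after treatment. It fell by 0.28 ± 0.07 on the log2 scale (1.21-fold, adjusted p = 0.011 in limma's test). Both were in the low range in both groups, KLRG1 with 17.7% and KLRF1 with 12.5% of probe sets at or below its untreated mean.

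KLRD1, which encodes CD94, had 2 probe sets, 1 of them called. The one with the higher values read 5.51, 5.49 and 5.68 in untreated and 5.78, 5.83 and 5.83 in treated cells and rose by 0.25 ± 0.08 (1.19-fold, adjusted p = 0.0218 in limma's test). The other was at 3.44 and 3.46 and was not called (adjusted p = 0.901). The first carries the name ending for probes that may bind unrelated sequences, so its signal is the less certain of the pair. Its call was lost in 6 of 13 alternative fits. These left out untreated replicate 1 (adjusted p = 0.0787), untreated replicate 2 (0.0859), treated replicate 1 (0.0503) or treated replicate 2 (0.0671). The others were median centring (adjusted p = 0.0571) and the ordinary equal-variance test (0.0541).

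KLRC3, or NKG2E, had 4 probe sets, none of them called. A probe set of transcript NM_007333 read 4.71, 4.89 and 4.67 in untreated and 4.96, 5.03 and 4.92 in treated cells. Its mean crossed the line of the low range upward, from 4.76 to 4.97 (adjusted p = 0.0602). The second probe set of the same transcript read 4.91, 4.92 and 4.85 before and 4.84, 4.81 and 4.79 after, and crossed the line downward, from 4.89 to 4.82 (adjusted p = 0.427). The second, unlike the first, carries the name ending for probes that may bind unrelated sequences. With opposite crossings in probe sets of 1 transcript, neither shows that KLRC3 left or entered the low range. The remaining 2, of transcript NM_002261, lay at 5.79 and 5.96 untreated and at 5.87 and 5.97 treated. The brighter of these carries that ending too. KLRK1, the activating receptor NKG2D, was at 4.30 and 4.31, and KLRB1, or CD161, at 3.57 and 3.52, and neither was called.

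The window upstream of the outermost KLRC1 start, at chr12:10454686-10454935, minus strand (GRCh38.p14), is shown because this gene had the largest change. It held 1 CG pair in its 250 bases, in capitals, and 93.9% of all windows held at least as many. Its other 2 windows held 2 and 0.
KLRC1: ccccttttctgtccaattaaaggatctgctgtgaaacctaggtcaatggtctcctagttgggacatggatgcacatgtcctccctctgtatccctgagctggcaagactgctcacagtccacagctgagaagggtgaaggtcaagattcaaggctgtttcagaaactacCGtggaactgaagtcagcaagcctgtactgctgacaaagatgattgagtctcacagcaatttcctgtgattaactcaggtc

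KLRG1 differs in this respect, with 24 CG pairs upstream of one start, a number reached by 23.7% of windows, and 0 upstream of another. Both genes fell.

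**Figure D3:**
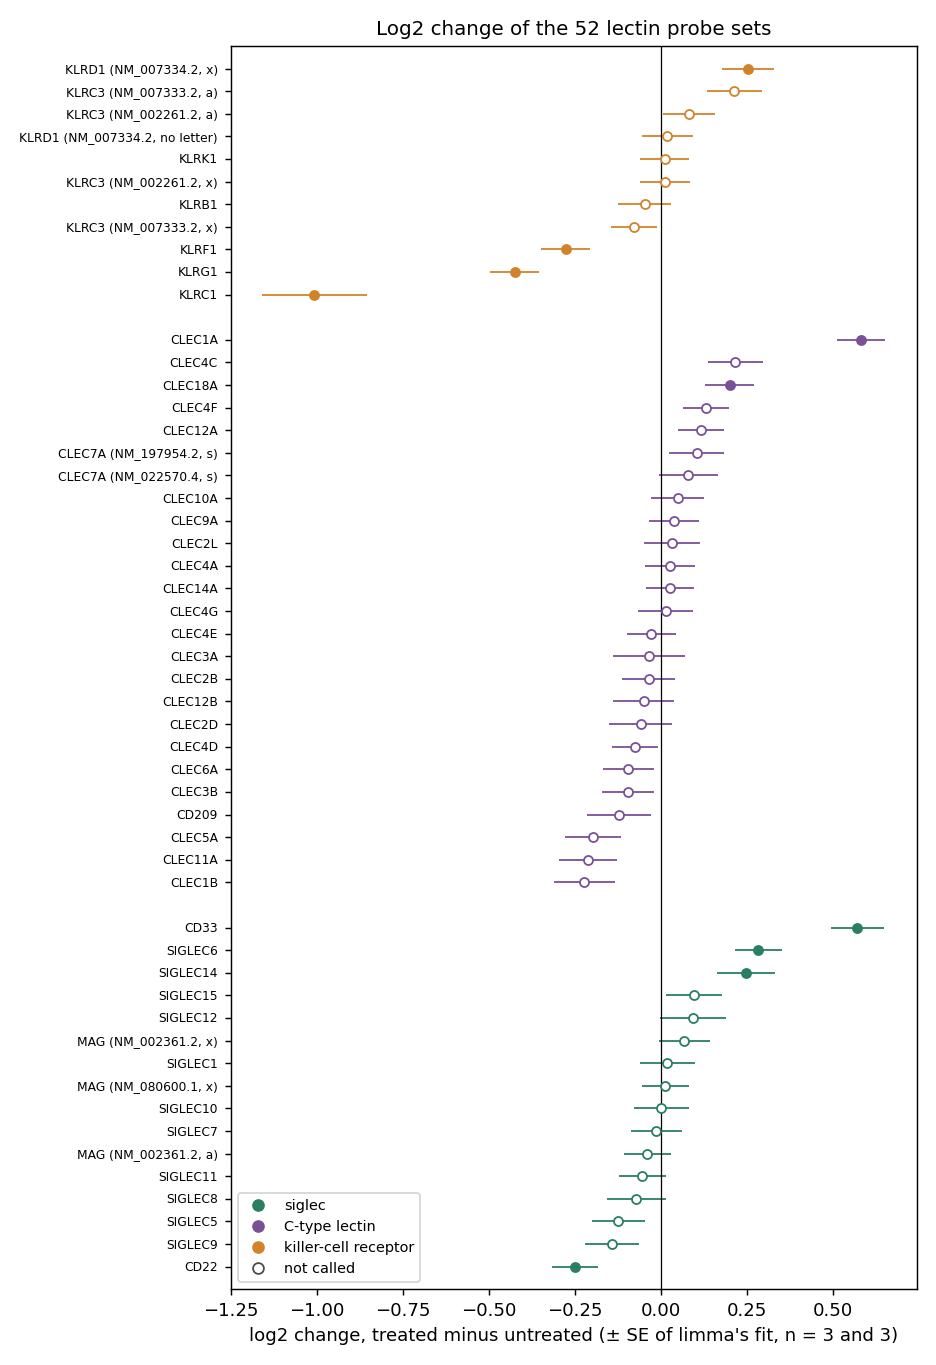
Log2 change (treated minus untreated) of all 52 lectin probe sets by family, with the standard error of limma's fit (n = 3 and 3), filled where called. Names in brackets give the transcript and the letter in the ending of the probe set's name for genes with several probe sets. Most points lie within 0.25 of 0, with KLRC1 at -1.01 and CLEC1A at 0.58 at the ends.

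The members lie in clusters of neighbouring genes (RefSeq, GRCh38.p14). Chromosome 12 holds 20 of the 45 genes, among them all 7 killer-cell receptor genes, and chromosome 19 holds 15. On chromosome 12, counted by each gene's brightest probe set, 2 genes rose (CLEC1A and KLRD1) and 3 fell (KLRG1, KLRF1 and KLRC1). The other KLRD1 probe set changed by 0.02 and was not called. CLEC1A and its neighbours among the members, CLEC9A on one side (0.04) and CLEC7A on the other (0.11 in its brighter probe set), did not share a call. On chromosome 19, 3 rose (CD33, SIGLEC6 and SIGLEC14) and 1 fell (CD22). Over the whole array 18.0% of probe sets were called higher and 16.8% lower, and no cluster was tested against these shares. SIGLEC6, SIGLEC5 and SIGLEC14 follow each other in that order among the members, with changes of 0.28, -0.12 and 0.25. CD22 stands beside MAG, whose brightest probe set changed by -0.04.

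How firm the 10 calls were differed between genes. CLEC1A, CD33, KLRC1, KLRG1 and KLRF1 were called in each of up to 13 alternative fits that tested them. CLEC1A had adjusted p-values of at most 0.0053 over these, CD33 of at most 0.0112, KLRG1 of at most 0.0104, KLRC1 of at most 0.0412 and KLRF1 of at most 0.0431. CD22 was lost without untreated replicate 2 (adjusted p = 0.0527), and SIGLEC6 after quantile normalization (0.0778). SIGLEC14 was lost without untreated replicate 1 (adjusted p = 0.108), untreated replicate 2 (0.162), treated replicate 1 (0.145) or treated replicate 3 (0.0994). Quantile normalization (0.127), median centring (0.103), the block for the replicate number (0.053) and the ordinary equal-variance test (0.133) also ended its call. All 10 kept their direction in every fit. Without untreated replicate 3, the array with the conflicting title, 10 members were called again, 9 of them the same, with CLEC18A lost (adjusted p = 0.0607) and CLEC4C gained (0.0456).

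**Figure D4:**
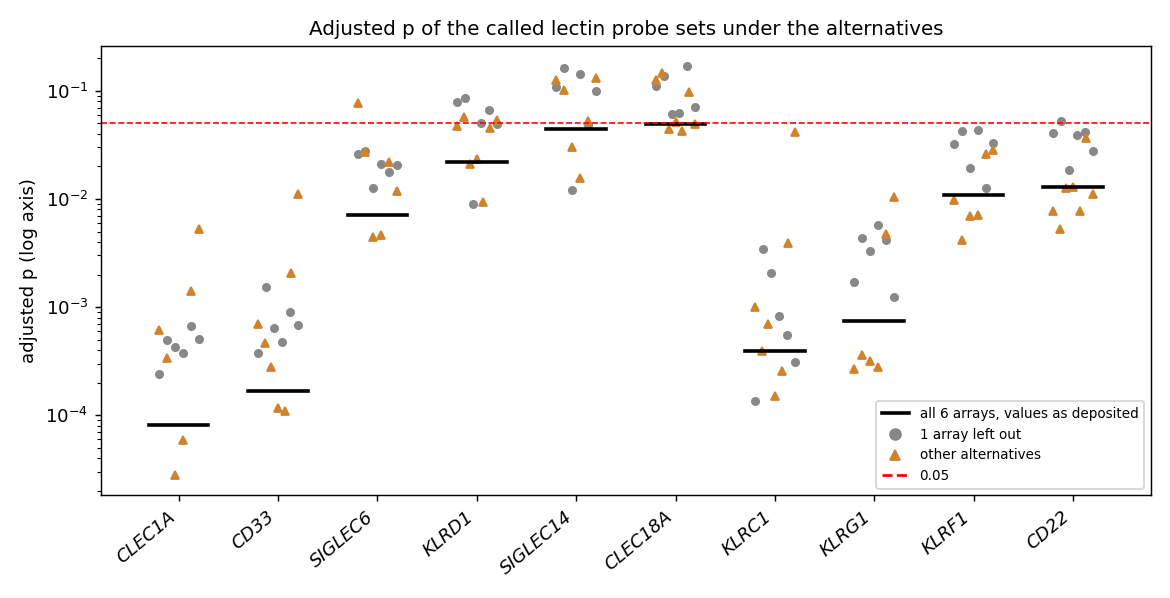
Adjusted p (log axis) of the 10 called lectin probe sets with all 6 arrays as deposited (black bars), with 1 array left out (grey circles) and under the other alternative fits (orange triangles). Points above the dashed line at 0.05 are calls lost, as for CLEC18A in 10 of 13 fits and SIGLEC14 in 8 of 12.

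Among 29 measured genes of proteins that share the C-type lectin fold under other names, 8 rose and 1 fell, with a median log2 change of 0.012. Counted by gene in the same way, the 45 member genes had a median of -0.012. Of all probe sets of the array 18.0% rose and 16.8% fell. Whether these genes differ from the members was not tested. LAYN, the hyaluronan receptor layilin, rose from 4.67 to 6.62 (adjusted p = 2.42e-07 in limma's test). OLR1, the scavenger receptor for oxidised lipoprotein, rose from 10.23 to 11.08 (adjusted p = 1.06e-05), and ASGR2, a subunit of the hepatic asialoglycoprotein receptor, from 4.79 to 5.70 (adjusted p = 1.21e-05). LAYN and ASGR2 left the low range. Both moved further across it than CLEC1A did, from 4.46 to 5.04. Sialic acid supply, which makes the sugar that siglecs bind, had 1 rise and 2 falls among 4 genes. CMAS, which activates sialic acid, went from 10.11 to 9.46 (adjusted p = 0.000264 in limma's test), NANS, sialic acid synthase, from 10.32 to 9.83 (0.00181) and GNE, the first enzyme, from 9.36 to 9.71 (0.0128). Of 14 listed adaptors and phosphatases that signal below these receptors, and of 14 listed ligands, 0 were among the genes matched on this array. Of the stromal and endothelial markers 6 of 14 were measured, 2 of them called, and their summed values ran from 23.2 to 24.2 in untreated and from 23.4 to 24.3 in treated arrays. PECAM1, an endothelial adhesion molecule, was higher (4.98 to 5.27, adjusted p = 0.0403), with groups that overlapped, while FLT1, an endothelial growth factor receptor, was not called (4.72 and 4.72, adjusted p = 0.955). PDGFRB, a receptor of pericytes, was lower (5.22 to 4.74, adjusted p = 0.00186), and DCN (2.76 and 2.75) and LUM (2.43 and 2.58) were low in both groups. These markers are given beside CLEC1A, which endothelial cells also express, and their part in its rise was not tested.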

How the data were processed

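Per the labels' protocols, biotin-labelled cRNA was made from Trizol-extracted total RNA by an Affymetrix procedure. The table that the authors deposited has log2 values of 1259 probe sets in 6 arrays, made with RMA per the submitters' processing notes. The RMA settings, platform and build were not given in these sources. The log2 scale was inferred from the range of values, 2.13 to 13.67. No column was left unused. RMA compresses differences between dim probe sets, which most members are.

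Probe sets were named by matching RefSeq transcripts without versions to a RefSeq table (GRCh38.p14): 1043 had 1 symbol and 216 stayed unnamed, 26 of these with an identifier that did not match. Groups follow the treatment entry of the labels. limma 3.58.1 in R 4.3.3 (lmFit, eBayes, two-sided, Benjamini-Hochberg over 1259 probe sets, called under 0.05) was fitted to all arrays. Errors are standard errors of that fit. All members are named or counted; called members and those crossing the low range are given by array, and of other lists the 3 called genes with the smallest p at most. FLT1, DCN and LUM were chosen after their values were seen. For genes with several probe sets, counts by gene use the one with the highest mean. Members and lists were chosen with earlier results of these data known. Alternatives were other normalizations, a filter on dim probe sets, an intensity trend, weights per array, a block for the replicate number, leaving out each array, an ordinary equal-variance test, other thresholds and other low ranges. Run on simulated data for treated against untreated arrays (1259 probe sets), the fit called 100% of 100 probe sets changed 1.5-fold and 100% of 100 changed 2-fold, with 7 false calls. The simulated noise was normal, independent and of the spread that limma itself estimated, with no offset shared within an array. It thus checks the code and does not measure sensitivity in the real data. The number of arrays limits the precision.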

Additional observations from a re-analysis of the deposited data

How the results depend on the processing

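The 6 probe sets called higher numbered 3 after median centring, 3 without the dimmest 33.3% of probe sets, which left 17 of the 52 members to test, and 3 at an adjusted p under 0.01. With 1 array left out they numbered 3 to 6. The 4 called lower numbered 9 after quantile normalization, 8 after median centring, 2 without the dimmest 33.3%, 2 under 0.01 and 7 under 0.1, and 4 to 5 with 1 array left out. Of the 10 calls 7 were shared with the 13 made after quantile normalization and 7 with the 11 after median centring. The count leaving the low range was 0 with the lowest 25% and 1 with the lowest 50%, and 2 whichever array was left out. The count above it in treated cells was 3, not 19, with the lowest 50%. CLEC4E, which was not called, had a change of -0.03 that turned to 0.0026 without untreated replicate 3, in a range from -0.076 with 1 array left out, and it was called lower after quantile normalization (-0.18, adjusted p = 0.0376). In 9 members that were not called, at least 1 alternative fit made a call. Deviations of same-numbered arrays from their group means correlated at -0.27, 0.04 and -0.11, and those of differently numbered arrays at -0.33 to 0.42. With 3 arrays per group these values are tied to each other and cannot tell whether the numbers pair the arrays. With the replicate number as a block 4 were called higher and 4 lower, with CLEC18A (adjusted p = 0.0977) and SIGLEC14 (0.053) lost. The cause of these shifts was not tested. With no background signal at hand, a value in the low range gives no bound on expression.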
